A study of Mus musculus with 8 samples.

Results

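Genes that mark a loss of beta-cell identity or an endocrine progenitor state were followed in the islets of obese and of weight-cycled mice. The set holds 10 genes taken by symbol, Serpina7, Gast, Aldh1a3, Fev, Cck, Neurog3, Mycl, Bach2, Cd81 and Vim, and all 10 were among the 35596 genes of the deposited table. Islets are clusters of endocrine cells in the pancreas, and messenger RNA was sequenced from islets picked by hand after collagenase digestion, all from males of the inbred strain C57BL/6J. In the obese group (4 libraries) a 10% fat diet lasted 9 weeks and a 60% fat diet the next 18 weeks. In the weight-cycled group (4 libraries) the 60% fat diet came for 9 weeks, the 10% fat diet for 9 weeks and the 60% fat diet once more for 9 weeks. Both groups ended on the 60% fat diet and no lean group was analysed here, so the comparison is between orders of the same diets. The last unbroken spell on the 60% fat diet, 18 against 9 weeks, goes with the diet order and cannot be told apart from it. The labels do not say that libraries came from separate mice, so a p-value here reflects only how far these libraries scatter, and that scatter may be technical. Values are TPM, a transcript level per length and relative to the library's total, so sequencing depth is unknown.

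Mature beta cells can lose the genes of glucose sensing and insulin secretion and take up genes of fetal or progenitor endocrine cells, a state known as dedifferentiation and described in rodent and human diabetes. Neurog3, a basic helix-loop-helix factor, commits pancreatic progenitors to the endocrine fate, and Fev, an ETS factor, follows it in those progenitors. Aldh1a3, a retinaldehyde dehydrogenase, is a widely used marker of failing beta cells, and Gast, the gastrin gene, is active in the fetal pancreas and silent or nearly so in healthy adult islets. Cck encodes cholecystokinin, whose active end gastrin shares, and Serpina7 encodes thyroxine-binding globulin, a carrier of thyroid hormone in blood. Mycl is a Myc family factor, Bach2 a transcriptional repressor, Cd81 a tetraspanin of the cell surface, and Vim the intermediate filament of mesenchymal cells.

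The promoter windows of Serpina7, Gast and Cck are shown because the first pair rose together and Cck is the relative of Gast. Of the 10 genes, 9 matched the RefSeq promoter table (GRCm38.p6, the assembly that mm10 names), and each sequence holds the 250 bases before a start of transcription, 5′ to 3′ on the strand of the gene. Capitals mark a TATA box (TATAAA), an HNF1 half-site (GTTAAT) or the E-box form CAGATG, on either strand.
Serpina7, chrX:139085220-139085469, minus strand: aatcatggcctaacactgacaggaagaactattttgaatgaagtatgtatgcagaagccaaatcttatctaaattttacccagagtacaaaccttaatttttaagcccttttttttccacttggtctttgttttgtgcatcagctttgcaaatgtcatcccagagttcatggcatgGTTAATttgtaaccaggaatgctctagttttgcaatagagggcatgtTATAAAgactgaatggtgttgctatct
Gast, chr11:100334157-100334406, plus strand: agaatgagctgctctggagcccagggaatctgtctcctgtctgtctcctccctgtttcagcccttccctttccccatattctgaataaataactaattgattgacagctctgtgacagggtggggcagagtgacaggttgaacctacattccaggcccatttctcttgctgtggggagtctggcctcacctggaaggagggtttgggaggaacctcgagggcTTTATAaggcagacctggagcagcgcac
Cck, chr9:121495695-121495944, minus strand: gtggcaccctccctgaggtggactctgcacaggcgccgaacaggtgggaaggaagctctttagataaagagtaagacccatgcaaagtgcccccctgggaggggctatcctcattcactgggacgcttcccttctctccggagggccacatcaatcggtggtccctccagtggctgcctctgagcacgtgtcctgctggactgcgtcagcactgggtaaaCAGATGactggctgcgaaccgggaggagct
The TATA letters began 27 bases before the start in Serpina7 and 28 bases before it in Gast, where they read TTTATA and match on the other strand. Serpina7 has another listed start, whose window is not printed. The TATA letters began 10 bases before that start and the HNF1 half-site 57 bases before it. The TATA letters were in the windows of 4 of the 9 genes, against 12.4% of all 32851 windows. The others were Mycl, 8 bases before the start, and Vim, 32 bases before it. The HNF1 half-site was in the Serpina7 window alone among the 9, and in 6.43% of all windows. The E-box form CAGATG was in the Cck window alone, 30 bases before the start, and in 14.4% of all windows. G and C made up 36.4% of the Serpina7 window, 53.2% of that of Gast and 60.0% of that of Cck, with a median of 52.4% over all windows. A match of letters is a description of the window, not a binding site.

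Insulin transcripts (Ins1 and Ins2) took 75.4% to 78.8% of TPM in each library, insulin being the main hormone of islets. Library scaling factors by the median of ratios ran from 1.02 to 1.26 in obese libraries, and were 1.09 in weight-cycled replicate 1 and 0.766 to 0.872 in the other weight-cycled libraries. On the first principal component weight-cycled replicate 1 scored -7.98, within the obese range of -23.3 to -5.03, and the others of its group 13.8 to 30.6. The 8127 genes whose mean TPM reached 1 were tested with limma on log2(TPM + 1). At an adjusted p of 0.05 the weight-cycled libraries were higher for 1.21% of them and lower for 23.9%, or 25.2% in either direction. Their median log2 fold change was -0.26, which median-of-ratios scaling moved to 0.03, leaving 0.972% higher and 0.295% lower. After a correction for transcript length within each library these shares were 1.94% and 1.64%. The number of genes called by limma fell to 0 once obese replicate 1 was left out, with 2714 genes at an unadjusted p under 0.05. Without weight-cycled replicate 1 it was 270 higher and 4441 lower. With no filter on low values it was 0 of 19482 genes.

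Of the 10 genes, 6 passed the filter and 4 did not (Cck, Neurog3, Mycl and Bach2). Among the 6, Serpina7 and Gast were called higher in weight-cycled islets, none was called lower, and Aldh1a3, Fev, Cd81 and Vim did not pass. The count of 2 higher stands beside 1.21% of all tested genes, and both genes were part of earlier results of these data, so the count is a description. Both had groups that did not overlap, as had 1.3% of tested genes with the weight-cycled group higher, 21.1% with it lower and 22.4% either way. The median of the 6 log2 fold changes was 0.24, or 0.49 after median-of-ratios scaling, against -0.26 and 0.03 for all tested genes. Ordered from the highest log2 fold change of the tested genes, Serpina7 had rank 3, Gast rank 16 and Aldh1a3 rank 78. These are whole islets, in which fewer cells of a type and less RNA per cell cannot be told apart.

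**Figure D1:**
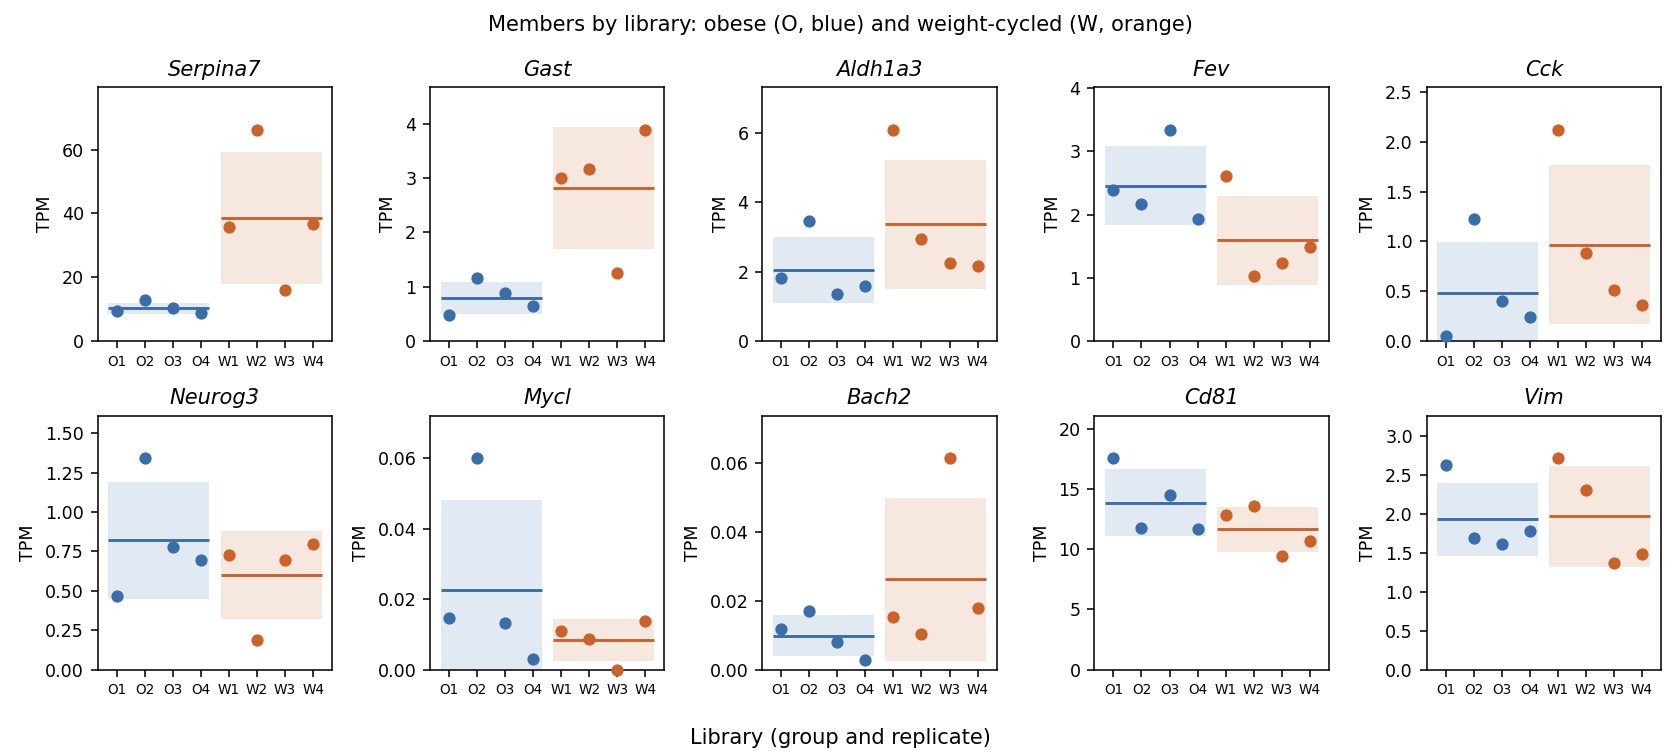
Each panel plots the TPM of a gene in each library (O1 to O4 obese, W1 to W4 weight-cycled, numbers are replicates), with the group mean as a line and 1 SD as a band. Serpina7 and Gast are the panels in which all 4 weight-cycled points lie above all 4 obese points.

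Serpina7 (ENSMUSG00000031271.14) lies on chromosome X from 139079257 to 139085236 (build mm10) on the minus strand, with 6 exons in its longest coding model. Its level was 9.32, 12.7, 10.3 and 8.78 TPM in obese replicates 1 to 4, and 35.6, 66.3, 16.0 and 36.6 TPM in weight-cycled replicates 1 to 4. The groups did not overlap, weight-cycled replicate 2 being far above the rest and replicate 3 nearest to the obese libraries. The groups differed by 3.76-fold in mean TPM and by 1.66 on the log2(TPM + 1) scale (SE 0.310, limma adjusted p = 0.0247). The coefficient of variation was 16.9% over obese libraries and 53.6% over weight-cycled ones. Serpina7 passed in 16 of 20 alternatives, with limma adjusted p from 0.00144 to 0.108. It lost the call without obese replicate 1 or 3 and without weight-cycled replicate 4. The call was also lost without the filter on low values, where limma called no gene at all.

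Within a library, the ratio of Serpina7 to another gene does not depend on how libraries are scaled. Serpina7 was above Cd81 in 1 of 4 obese libraries and in 4 of 4 weight-cycled ones. The log2 ratio was -0.42 ± 0.42 (SD, n = 4) among obese libraries and 1.58 ± 0.64 (SD, n = 4) among weight-cycled ones. This ratio was computed after the values were seen and was not tested. The log2 ratio of Serpina7 to Gast was 3.76 ± 0.39 in obese and 3.72 ± 0.49 in weight-cycled libraries, a difference smaller than either SD.

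The other genes of thyroid hormone carriage and response moved in both directions. Of 14 such genes, 6 were tested, 1 was higher, 2 were lower and 3 did not pass. Of all tested genes, 1.21% were called higher and 23.9% lower. The median log2 fold change of the 6 was -0.04, or 0.24 after median-of-ratios scaling. Ttr, which encodes the thyroxine and retinol carrier transthyretin, rose from 478 ± 109 to 728 ± 79.3 TPM (SD, n = 4 each, limma adjusted p = 0.0337), with all weight-cycled libraries above all obese ones. It is also an alpha-cell gene and stands on the list of alpha-cell markers, whose summed level ran from 4576 to 12328 TPM in obese and from 3128 to 8531 TPM in weight-cycled libraries. Most of that sum is Gcg, the glucagon gene, and it includes Ttr itself. Of the 8 alpha-cell markers Gc was also called higher, at 44.5 and 81.9 TPM (limma adjusted p = 0.0353), Slc7a2 was called lower, at 9.61 and 5.50 TPM (limma adjusted p = 0.0318), and 5 did not pass. The part of alpha cells in the change of Ttr was not tested. Thra, a thyroid hormone receptor, fell from 6.38 ± 0.390 to 3.31 ± 0.886 TPM, which is -0.79 on the log2 scale (limma adjusted p = 0.0243, SE 0.137). Thra kept its direction and its call after median-of-ratios scaling (-0.49) and Ttr kept its direction only (1.01, limma adjusted p = 0.0588, from 0.00568 to 0.108 over its alternatives). After length correction both passed, Thra at -0.56 (limma adjusted p = 0.0221) and Ttr at 0.79 (limma adjusted p = 0.0467). Ncor1, a corepressor that thyroid hormone receptors use, fell by 0.51 on the log2 scale, and passed neither after median-of-ratios scaling (-0.18) nor after length correction (-0.20). Dio1, a deiodinase that converts thyroxine, averaged 43.5 ± 3.85 and 47.3 ± 3.31 TPM (SD, n = 4 each), and Dio3 was listed at 0 in all libraries. Serpina6, the related carrier of corticosteroids, reached at most 0.00811 TPM. Thra and Ttr both lost their calls without the filter on low values, where limma called no gene at all. Both also lost them on leaving out any of obese replicates 1 to 3 or of weight-cycled replicates 2 and 4. Ttr lost its call without weight-cycled replicate 3 as well.

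Gast (ENSMUSG00000017165.1) lies on chromosome 11 from 100334407 to 100336996 on the plus strand, with 3 exons and a single annotated transcript of 460 bases. Its level was low, at 0.470, 1.16, 0.887 and 0.650 TPM in obese replicates 1 to 4 and 3.0, 3.16, 1.24 and 3.90 TPM in weight-cycled replicates 1 to 4. All weight-cycled libraries were above all obese ones, the nearest pair being weight-cycled replicate 3 and obese replicate 2. The groups differed by 3.57-fold in mean TPM and by 1.05 on the log2(TPM + 1) scale (SE 0.216, limma adjusted p = 0.0303). The pseudocount sets much of that size for so low a gene, which was 1.67 with a pseudocount of 0.1 and 0.42 with a pseudocount of 5. Gast passed in 13 of 19 alternatives, with adjusted p from 0.00232 to 0.108. The call was lost without the filter on low values, without obese replicate 1, 2 or 3 and without weight-cycled replicate 2 or 4. Without that filter limma called no gene at all.

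**Figure D2:**
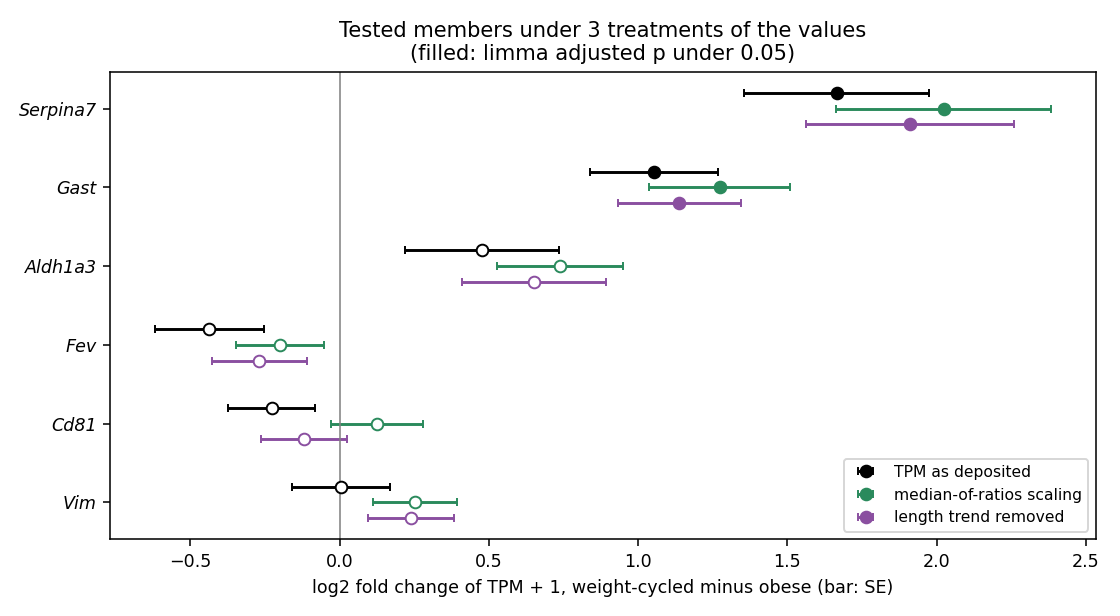
Points give the log2 fold change of TPM + 1 (weight-cycled minus obese) of the 6 tested genes with the SE as a bar, for TPM as deposited, after median-of-ratios scaling and after removal of the length trend. Filled points, those with a limma adjusted p under 0.05, are those of Serpina7 and Gast, and Cd81 changes sign with the scaling.

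Cck (ENSMUSG00000032532.7, chromosome 9, 121489824 to 121495694) had a mean TPM of 0.724 and was under the filter. It was at 0.0516, 1.22, 0.403 and 0.244 TPM in obese replicates 1 to 4 and at 2.12, 0.879, 0.512 and 0.357 TPM in weight-cycled replicates 1 to 4. The ranges overlapped, weight-cycled replicate 1 and obese replicate 2 being the highest of their groups. The mean log2 difference of 0.39 did not pass an exact permutation test over the 70 assignments of libraries (two-sided, p = 0.343, or 0.797 adjusted over the 11355 genes under the filter). Of those genes 6.93% had a p of 0.0286, the smallest the design allows. Within libraries Gast was above Cck in 3 of 4 obese and 4 of 4 weight-cycled libraries, and their log2 ratio was 1.41 ± 1.35 and 1.77 ± 1.25 (SD, n = 4 each).

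Other gut and neural peptide hormones were mostly near the floor of the table. Of 17 genes of that list, receptors included, 4 were tested, 1 was higher, 0 were lower and 3 did not pass. Of all tested genes, 1.21% were called higher and 23.9% lower. Cartpt, a neuropeptide gene that islet cells also express, rose from 1.68 ± 0.326 to 2.93 ± 0.633 TPM, by 0.55 on the log2 scale (SE 0.137, limma adjusted p = 0.0337), and by 0.81 after median-of-ratios scaling with the call kept. All weight-cycled libraries, at 2.31 to 3.60 TPM, were above all obese ones, at 1.49 to 2.16 TPM. Cartpt lost the call when any single library was left out other than obese replicate 4 or weight-cycled replicate 1. Pyy, the peptide YY gene of islet PP cells, was at 3487 ± 548 and 3277 ± 648 TPM, and Npy, the neuropeptide Y gene, at 2.33 ± 1.53 and 1.75 ± 0.890 TPM. Cckbr, the receptor that gastrin and cholecystokinin share, reached at most 0.00967 TPM in any library, and Cckar, the cholecystokinin receptor, was at 0.133 and 0.143 TPM in the means of the groups. Gip was listed at 0 in all libraries. Of 5 gut epithelial markers, Cdx2 and Apoa4 were at 0 in all libraries and the summed level was at most 0.0830 TPM.

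Aldh1a3 (ENSMUSG00000015134.15, chromosome 7, 66390890 to 66427517) was at 1.82, 3.45, 1.36 and 1.59 TPM in obese replicates 1 to 4 and at 6.10, 2.94, 2.24 and 2.17 TPM in weight-cycled replicates 1 to 4. Weight-cycled replicate 1 was the only library above the highest obese value, and all 4 weight-cycled libraries were above the obese mean of 2.06 TPM. The log2 fold change of 0.48 (SE 0.259) did not pass (limma adjusted p = 0.153). It stayed above 0 in all 19 alternatives, from 0.21 without weight-cycled replicate 1 to 0.76 after quantile normalisation, and passed in 0 of them. With median-of-ratios scaling and without weight-cycled replicate 1, a pair of changes made together, it was at 0.56 (limma adjusted p = 0.0366). The scaled fit without weight-cycled replicate 1 called 2049 of the 8127 tested genes higher and 945 lower, against 79 and 24 with all libraries. With any other single library left out in its place, the limma adjusted p of Aldh1a3 after scaling ran from 0.0893 to 0.200. The summed level of 10 acinar markers, genes of the digestive-enzyme cells around islets, was also highest in weight-cycled replicate 1, at 4895 TPM against 1618 to 3074 TPM in all others. The part of acinar cells in the values of Aldh1a3 was not tested.

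Retinoid genes beside Aldh1a3 did not pass. Of 20 genes of that pathway, 5 were tested, 0 were higher and 0 lower, with a median log2 fold change of -0.27 as deposited and -0.01 after median-of-ratios scaling. The count at an unadjusted limma p under 0.05 was 3 of the 5, where 3993 of all 8127 tested genes had such a p. The other retinaldehyde dehydrogenases, and the related Aldh1b1, were lower than Aldh1a3 in mean TPM, with group means (obese, then weight-cycled) of 0.133 and 0.115 TPM for Aldh1a1, 0.0290 and 0.0195 TPM for Aldh1a2 and 0.659 and 0.436 TPM for Aldh1b1. Rxra, a retinoid X receptor, was at 1.78 ± 0.216 and 1.15 ± 0.391 TPM (limma adjusted p = 0.0522), and Rarg, a retinoic acid receptor, and Rdh11, a retinol dehydrogenase, had log2 fold changes of -0.33 and -0.27.

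**Figure D3:**
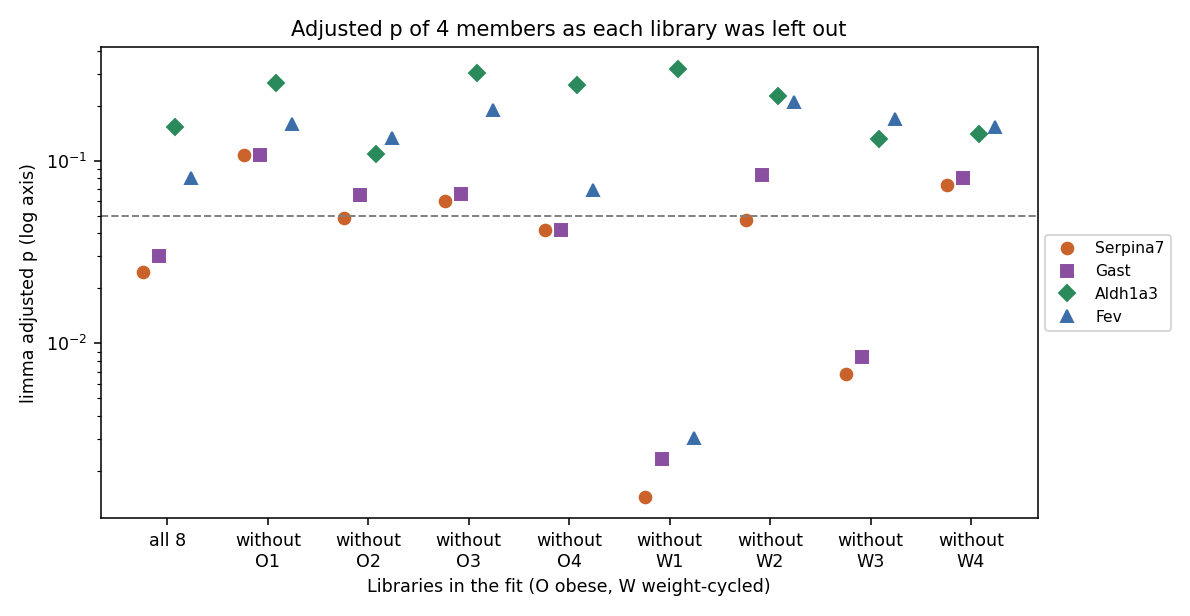
The limma adjusted p (log axis) of 4 genes is shown with all 8 libraries and with each library left out in turn, and the dashed line marks 0.05. Serpina7 stays below the line in 5 of 8 such fits, Gast in 3, Fev in 1 (without weight-cycled replicate 1) and Aldh1a3 in 0.

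Neurog3 (ENSMUSG00000044312.4, chromosome 10, 62133090 to 62134763), the endocrine fate regulator, had a mean of 0.711 TPM and was under the filter. Its level was 0.470, 1.34, 0.777 and 0.696 TPM in obese replicates 1 to 4, and 0.728, 0.189, 0.693 and 0.796 TPM in weight-cycled replicates 1 to 4. All weight-cycled libraries lay below the obese mean of 0.821 TPM, and obese replicate 1 lay below 3 of the 4 weight-cycled libraries. The mean log2 difference of -0.18 did not pass (exact permutation test, two-sided, p = 0.457). Neurog3 overlaps Fam241b, a gene on the other strand that was at 7.23 to 11.3 TPM. Strand-specific counting is not stated in the sources used here, so reads of the overlap cannot be told apart. Gast, at the same level as Neurog3 in obese libraries with a log2 ratio of -0.03 ± 0.17, was above it by 2.31 ± 1.33 in weight-cycled libraries (SD, n = 4 each), a ratio chosen after the values were seen.

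Fev (ENSMUSG00000055197.4, chromosome 1, 74881509 to 74885419) was at 2.40, 2.16, 3.35 and 1.92 TPM in obese replicates 1 to 4 and at 2.61, 1.02, 1.24 and 1.49 TPM in weight-cycled replicates 1 to 4. Weight-cycled replicates 2, 3 and 4 were below every obese library and replicate 1 was among them. The log2 fold change was -0.44 (SE 0.182, limma adjusted p = 0.0804), thus in the direction opposite to Serpina7 and Gast, and -0.20 after median-of-ratios scaling. It passed in 2 of 19 alternatives, without weight-cycled replicate 1 (-0.61) and with array weights (-0.66). Those fits called 4441 and 4499 of the 8127 tested genes lower. The limma adjusted p of Fev ran from 0.00112 to 0.474.

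Progenitor and endocrine transcription factors held many lower genes. Of 23 such genes, 13 were tested, 7 were lower, 0 higher and 6 did not pass, beside 23.9% of all tested genes called lower. The median log2 fold change was -0.45 against -0.26 for all tested genes, and -0.12 against 0.03 after median-of-ratios scaling, which left 0 of the 7 called, as did the removal of the length trend. Neurod1, a target of Neurog3 that stays on in mature beta cells, fell from 11.1 ± 2.32 TPM in obese libraries to 6.50 ± 2.06 TPM (limma adjusted p = 0.0345, SD over 4 libraries). St18, a zinc-finger factor of endocrine cells, fell from 2.74 ± 0.576 to 1.37 ± 0.758 TPM, and Sox4, a factor of endocrine progenitors, from 1.49 ± 0.0984 to 0.849 ± 0.144 TPM. Rfx6, Pax6, Isl1 and Foxa2 were the other genes called lower, named after their values were seen. These 7 are also expressed by adult islet cells, while factors of earlier progenitors were near the floor: Sox9 reached 0.0359 TPM, Onecut1 0.00698 TPM and Ptf1a 0.0806 TPM in any library, and Pax4 was listed at 0 in all. Of 7 duct markers, the cells that share Sox9 with progenitors, the summed level ran from 36.0 to 45.5 TPM in obese and from 32.2 to 51.2 TPM in weight-cycled libraries. Most of that sum is Krt7 and Spp1. Krt7 averaged 22.0 and 16.1 TPM and was called lower (limma adjusted p = 0.0382), but not after median-of-ratios scaling (-0.06). Spp1 averaged 16.7 and 25.1 TPM and did not pass (limma adjusted p = 0.0615).

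Fev also controls serotonin genes in neurons. Of 15 genes of that pathway, 5 were tested, 2 were lower, 0 higher and 3 did not pass, beside 23.9% of all tested genes called lower. Maob, a monoamine oxidase gene, fell from a mean of 23.3 to 12.4 TPM, by 0.88 on the log2 scale (limma adjusted p = 0.0247, SE 0.161), and Gch1, which makes the cofactor of the hydroxylases, by 0.44 on the log2 scale. After median-of-ratios scaling neither passed (-0.52 and -0.07, from 0.000901 to 0.108 and from 0.00373 to 0.735 in adjusted p over their alternatives). After length correction Maob passed (-0.60, limma adjusted p = 0.0317) and Gch1 did not (-0.14). Slc18a1, a vesicular monoamine transporter, was at 1.62 ± 0.457 and 1.19 ± 0.315 TPM. Tph1 and Tph2, the tryptophan hydroxylases that begin serotonin synthesis, reached at most 0.0300 and 0.205 TPM.

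Mycl and Bach2 were close to 0 in every library. Mycl (ENSMUSG00000028654.13, chromosome 4, 122995652 to 123002485) ran from 0.00296 to 0.0600 TPM in obese libraries and from 0 to 0.0138 TPM in weight-cycled ones, the 0 being weight-cycled replicate 3. Bach2 (ENSMUSG00000040270.16, chromosome 4, 32238804 to 32586108) ran from 0.00280 to 0.0170 TPM in obese libraries, and from 0.0103 to 0.0179 TPM in weight-cycled replicates 1, 2 and 4 with 0.0615 TPM in replicate 3. Neither difference passed (exact permutation tests, two-sided, p = 0.343 and 0.171). Bach2 overlaps Bach2os on the other strand, and Bach2it1 and Gm24371 on its own, none of which was analysed here. Without a stated strand setting, reads of the overlap with Bach2os cannot be told apart. Among 15 pluripotency and Myc family genes, 5 were tested, 1 was lower, 0 higher and 4 did not pass. Of all tested genes, 23.9% were called lower. The lower gene was Max, the partner with which Myc proteins bind DNA, which fell from 11.5 ± 0.757 to 8.12 ± 2.37 TPM (limma adjusted p = 0.0450), and at -0.15 did not pass after median-of-ratios scaling (0.00154 to 0.357 over its alternatives). Mxi1 and Mnt, repressors of the same network, were at -0.43 and -0.40. Pou5f1, Nanog, Sox2 and Lin28b, genes of pluripotent cells, were at most 0.00622 TPM in any library. Of 12 partners and relatives of Bach2, 9 were tested and 3 were lower, beside 23.9% of all tested genes called lower. Those were Maff (-0.41), Nfe2l1 (-0.69) and Nfe2l2 (-0.52), while 0 were higher. Of this list 0 passed after median-of-ratios scaling or length correction.

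Cd81 (ENSMUSG00000037706.17, chromosome 7, 143052739 to 143067934) was at 17.5, 11.7, 14.5 and 11.7 TPM in obese replicates 1 to 4 and at 12.9, 13.5, 9.46 and 10.6 TPM in weight-cycled replicates 1 to 4. The ranges overlapped, and all 4 weight-cycled libraries were below the obese mean. Cd81 overlaps R74862, a transcript on the other strand that was not analysed here, and without a stated strand setting reads of the overlap cannot be told apart. The log2 fold change was -0.23 (limma adjusted p = 0.218, SE 0.146), near the median of all tested genes, and turned to 0.13 after median-of-ratios scaling. A single alternative, array weights, called Cd81 lower (-0.43), in a fit that called 4499 of the 8127 tested genes lower. The limma adjusted p of Cd81 ran from 0.00490 to 0.959. Of 19 tetraspanins and their partners, 14 were tested, 1 was lower, 0 higher and 13 did not pass, beside 23.9% of all tested genes called lower. The lower gene was Igsf8, an immunoglobulin protein that binds Cd81, which fell from 5.46 ± 0.541 to 3.46 ± 0.554 TPM (limma adjusted p = 0.0303). After median-of-ratios scaling Igsf8 was at -0.23 and no longer passed, which left 0 of the list lower. After length correction Igsf8 did pass (-0.33, limma adjusted p = 0.0489), and the tetraspanin Tspan15 was called higher (0.48, limma adjusted p = 0.0486). Tspan7, a tetraspanin and islet autoantigen, was at 111 ± 9.84 and 94.5 ± 4.0 TPM (limma adjusted p = 0.0640) and Cd82 at 13.8 ± 1.55 and 11.6 ± 1.58 TPM. Scaling by the median of ratios reversed both signs, from -0.23 to 0.15 for Tspan7 and from -0.24 to 0.12 for Cd82.

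Vim (ENSMUSG00000026728.9, chromosome 2, 13573927 to 13582826) was at 2.62, 1.69, 1.61 and 1.78 TPM in obese replicates 1 to 4 and at 2.71, 2.30, 1.36 and 1.48 TPM in weight-cycled replicates 1 to 4. Each group held high and low libraries, and the log2 fold change was 0.0047 (SE 0.164, limma adjusted p = 0.983). Its sign differed among the alternatives, from -0.19 to 0.28, and 0 of 19 passed. Summed levels of 10 stellate and fibroblast markers were highest in the same libraries as Vim, obese replicate 1 (17.9 TPM) and weight-cycled replicate 1 (17.6 TPM), and ran from 7.97 to 16.8 TPM in the others. Most of each sum was a single gene, Rgs5, at 12.4 TPM in obese replicate 1 and 12.6 TPM in weight-cycled replicate 1. Summed levels of 8 endothelial markers ran from 52.8 to 86.6 TPM in obese and from 29.4 to 60.6 TPM in weight-cycled libraries, and those of 9 macrophage markers from 53.9 to 67.7 and from 41.6 to 51.9 TPM. These cells express Vim, and their part in its values was not tested.

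Epithelial and mesenchymal genes beside Vim did not shift as a block. Of 20, 10 were tested, 1 was higher, 4 were lower and 5 did not pass. Of all tested genes, 1.21% were called higher and 23.9% lower. S100a4, a calcium-binding protein gene common in fibroblasts and leukocytes, rose from 6.60 ± 1.67 to 12.3 ± 4.10 TPM (limma adjusted p = 0.0367), but not past the threshold after median-of-ratios scaling (1.12, adjusted p = 0.0569, from 0.0121 to 0.116 over its alternatives). Cdh1, the epithelial cadherin gene, fell from 13.9 ± 2.86 to 8.26 ± 3.08 TPM and Cldn4, a tight junction gene, from 22.5 ± 2.49 to 15.5 ± 2.25 TPM. Epcam and Cdh2 were the others called lower, named after their values were seen. None of these 4 passed after scaling or after length correction. The mesenchymal regulators Snai1, Snai2 and Twist1 reached at most 0.157, 0.122 and 0.0289 TPM.

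**Figure D4:**
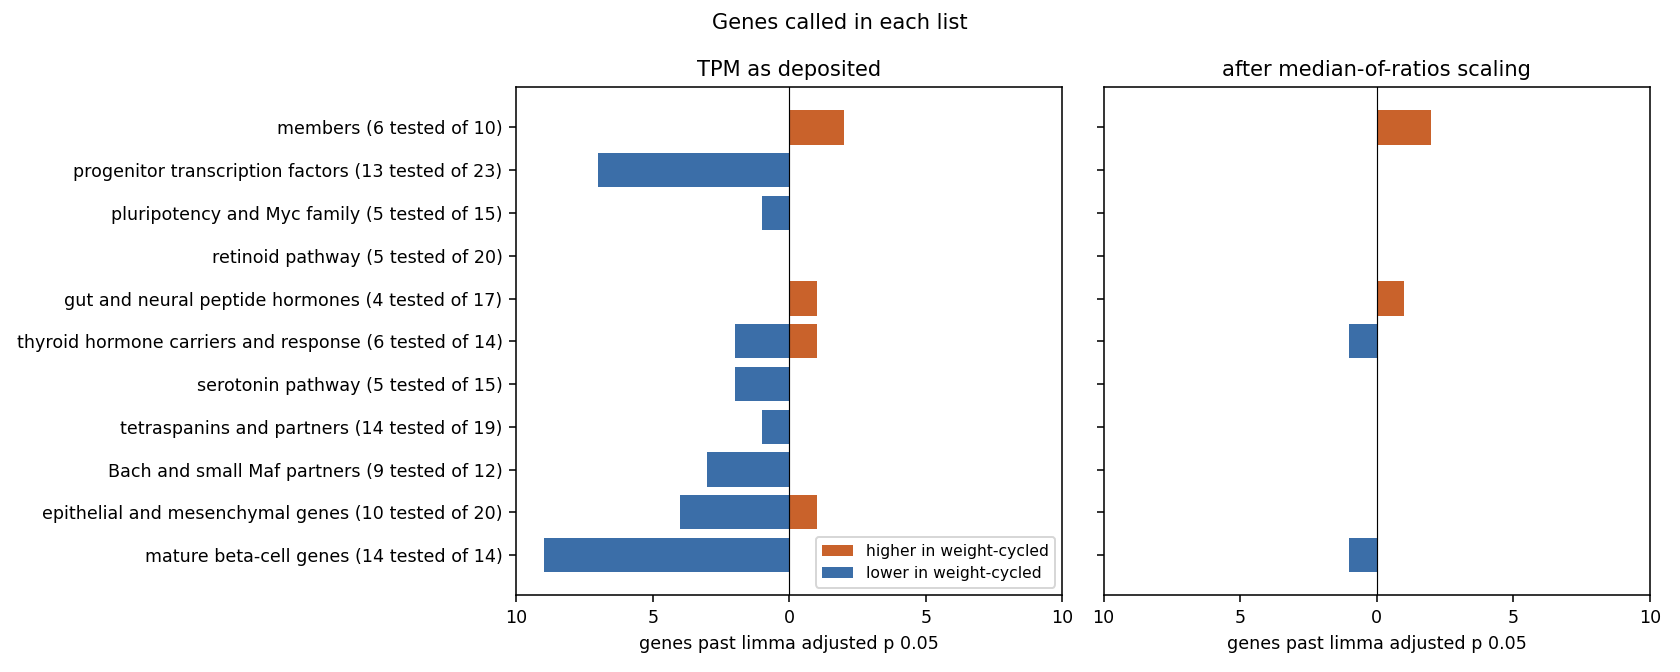
Bars count the genes of each list called higher (right) or lower (left) in weight-cycled islets, for TPM as deposited and after median-of-ratios scaling, with the numbers tested and listed beside each name. The 2 called members stay at 2 in both panels, and the lower progenitor factors go from 7 to 0.

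Genes of mature beta cells were read beside the members. Of 14, 9 were lower, 0 higher and 5 did not pass, beside 23.9% of all tested genes called lower, with a median log2 fold change of -0.61 as deposited and -0.25 after median-of-ratios scaling, which left 1 lower gene, Slc2a2. That gene, the glucose transporter gene, fell from 73.9 ± 14.1 to 34.3 ± 8.79 TPM, and its highest weight-cycled value was in replicate 3, the library with the lowest Serpina7 and Gast of its group. Mafa, a factor of mature beta cells, was likewise highest in weight-cycled replicate 3, at 22.6 TPM, and lowest in replicate 2, at 9.42 TPM, the library with the highest Serpina7. Slc30a8, the granule zinc transporter gene, fell by 0.61 on the log2 scale. After length correction 3 of the 14 genes were called lower. The 5 that did not pass were Ins1, Ins2, G6pc2, Foxo1 and Iapp, the last with a log2 fold change of 0.31.

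The 10 genes were also ordered by level within each group. By mean TPM in obese islets the order was Cd81, Serpina7, Fev, Aldh1a3, Vim, Neurog3, Gast, Cck, Mycl and Bach2. In weight-cycled islets it was Serpina7, Cd81, Aldh1a3, Gast, Vim, Fev, Cck, Neurog3, Bach2 and Mycl. In obese islets the ranges of neighbours in this order overlapped except between Serpina7 and Fev and between Vim and Neurog3. In weight-cycled islets they overlapped except between Serpina7 and Cd81, Cd81 and Aldh1a3, and Neurog3 and Bach2. Obese replicate 2 was the highest obese library for 7 of the 10 genes (Serpina7, Gast, Aldh1a3, Cck, Neurog3, Mycl and Bach2), where it was the highest for 37.5% of all tested genes. Among weight-cycled libraries, replicate 1 was highest for 4 of the 10 and for 63.7% of all tested genes. Cck, Neurog3, Mycl and Bach2 were under the filter, so the shares over tested genes do not cover genes that low.

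The tested genes whose profiles over the 8 libraries lay nearest to 3 of the members were sought by the root mean square distance between log2(TPM + 1) values centred on each gene's mean. Dapl1, a small gene expressed in epithelia, Cenpa, a centromeric histone, and Stmn1, a microtubule-destabilising protein, were nearest to Serpina7, at 0.326, 0.375 and 0.405 log2 units. Cd200, a surface glycoprotein, Sec11c, a signal peptidase subunit, and Fkbp11, a prolyl isomerase of the endoplasmic reticulum, were nearest to Gast, at 0.234, 0.235 and 0.243 log2 units. Nearest to Aldh1a3 were the trypsin genes Try4 and Try5, at 0.111 and 0.126 log2 units, and Nucb2, the nucleobindin gene, at 0.156. Try4 was at 629 TPM in weight-cycled replicate 1 and 225 to 422 TPM in all others. Trypsin genes are near-identical copies, so the split of reads between them is uncertain. These distances describe the libraries and were not tested.

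**Figure D5:**
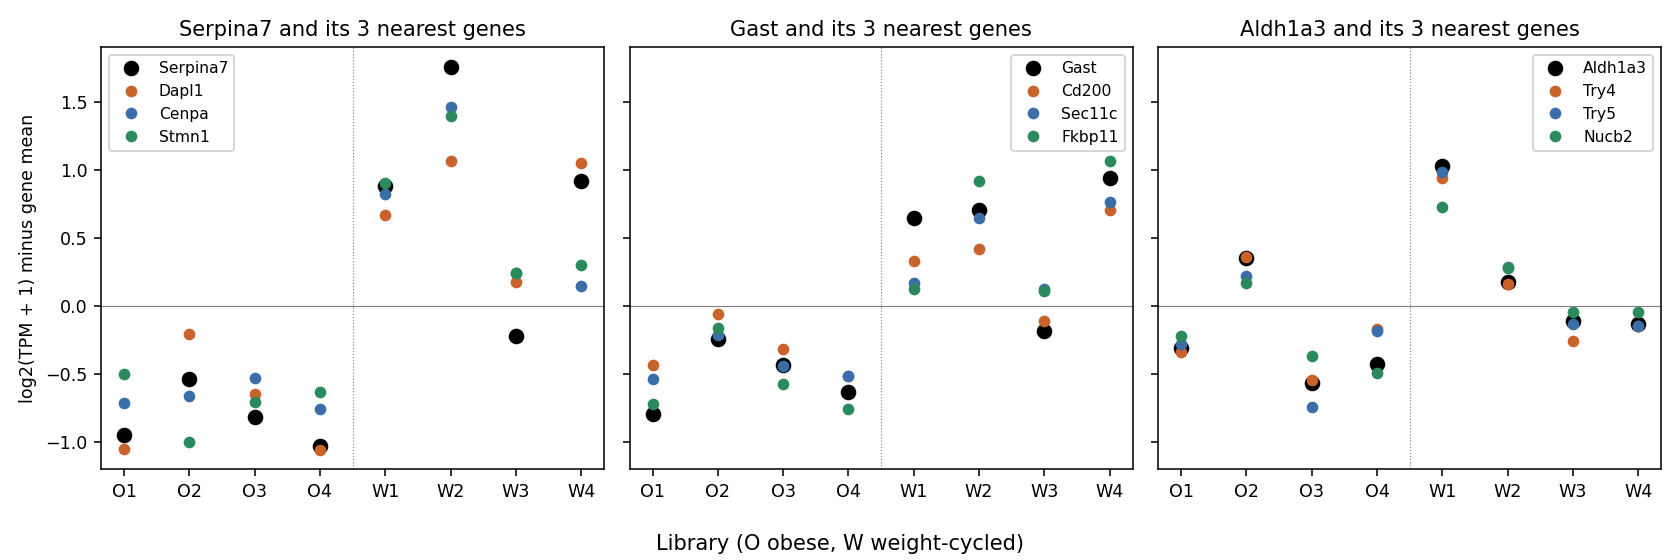
Points give log2(TPM + 1) minus the gene's mean in each library for Serpina7, Gast and Aldh1a3 (black) and the 3 genes nearest to each (colours). In the right panel Aldh1a3, Try4, Try5 and Nucb2 are all highest in weight-cycled replicate 1 (W1) and next highest in obese replicate 2 (O2) or weight-cycled replicate 2 (W2).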

How the data were processed

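Islet RNA of 4 obese and 4 weight-cycled libraries was selected by poly-A, per the labels' protocols. The authors deposited TPM per gene, and the submitters' processing notes name Salmon 1.5.2 and mm10. Which annotation was used, how transcripts were summed and whether strand was set is not given in the sources used here. Symbols were found for 35527 of 35596 IDs, and lengths and positions came from GENCODE M21 (GRCm38).

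The main fit was limma 3.58.1 (R 4.3.3, eBayes with trend) on log2(TPM + 1) for the 8127 genes averaging 1 TPM or more, two-sided, and p was adjusted by Benjamini-Hochberg over all of them. TPM are not counts, so no count test was run. Genes under the filter were compared by exact permutation. Named genes were all members, up to 3 genes of smallest p per list, and the 3 nearest profiles to Serpina7, Gast and Aldh1a3. Members and lists were chosen with earlier results of these data known. Alternatives were other pseudocounts (0.1 and 5), filters (none and 5), scalings, variance models, library weights, the replicate number as a block, length correction (loess, span 0.5) and leaving out each library. Fits that scaled and left out a library together were added after seeing the data.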

Additional observations from a re-analysis of the deposited data

Results flagged for a closer look

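Dixon's test at the 95% level asked, for 120 groups of 4 values, whether the highest or lowest stood apart. It passed in 6 groups, the number chance gives. Neurog3 in weight-cycled replicate 2 had 0.189 TPM, where replicates 1, 3 and 4 had 0.693 to 0.796 TPM. Bach2 in weight-cycled replicate 3 had 0.0615 TPM, where the rest had 0.0103 to 0.0179 TPM. Vim in obese replicate 1 had 2.62 TPM and in the rest 1.61 to 1.78 TPM. St18 had 2.49 TPM in weight-cycled replicate 1 and 0.845 to 1.08 TPM in the rest. Cartpt had 2.16 TPM in obese replicate 2 and 1.49 to 1.54 TPM in the rest. Acinar markers summed to 4895 TPM in weight-cycled replicate 1 and to between 1840 and 2181 TPM in the rest.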

How the results depend on the processing

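The count of 2 higher members, Serpina7 and Gast, was 1 with a filter at a mean TPM of 5, which Gast did not reach. It was 0 without the filter on low values, where limma called 0 of 19482 genes in either direction. As single libraries were left out, the count ran from 0 to 2. With median-of-ratios scaling as well, it ran from 0 to 3. It was 0 without any single obese library or weight-cycled replicate 4, 1 without replicate 2 of that group, and 3 without its replicate 1. Of all 8127 tested genes, the last of these fits called 2049 higher and 945 lower. The count of 0 lower members became 2 with array weights (Fev and Cd81), a fit that called 4499 of the 8127 tested genes lower. As libraries were left out it ran from 0 to 1, being 1 without weight-cycled replicate 1, where 4441 genes were lower. With the replicate number as a block both counts were unchanged at 2 and 0, and limma called 149 genes higher and 2754 lower in place of 98 and 1946. Same-numbered libraries deviated together with correlations from -0.28 to 0.23, and 2 of 8 libraries matched best with their own number, so the numbers were not taken to pair them. Of 45 named genes with a fold change, 37 kept their sign in all alternatives that changed a single choice. Cd81 turned to 0.13 after median-of-ratios scaling, and with libraries left out as well to 0.19 (obese replicate 1), 0.032 (2), 0.17 (3), 0.11 (4), 0.18 (weight-cycled replicate 1), 0.21 (3) and 0.13 (4), and kept its sign without weight-cycled replicate 2. Vim was at -0.0027 with a pseudocount of 0.1, -0.19 with array weights and -0.11 to 0.11 as libraries were left out. Npy was at 0.042 after scaling, 0.030 with quantile normalisation, 0.23 with array weights and -0.55 to 0.048 as libraries were left out. Pyy was at 0.28 after scaling and 0.0050 after length correction, and Tspan7 at 0.15 and 0.13. Rdh11 was at 0.0052 with quantile normalisation and 0.010 after length correction, Slc18a1 at 0.015 with quantile normalisation and Cd82 at 0.12 after scaling. The cause was not tested. Differences of the 4 members under the filter kept their sign in all 52 values, with exact permutation p of 0.0571 or more. TPM keep no depth, so the precision of genes near 0 is unknown.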

Other observations

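Of the nuclear receptor genes under the filter, Thrb and Rara are given as values chosen after they were seen, beside Rarb and Rxrg of the retinoid list. Thrb, the other thyroid hormone receptor gene, was at 0.709 to 1.16 TPM in obese and 0.342 to 0.538 TPM in weight-cycled libraries, and Rara, a retinoic acid receptor gene, at 0.603 to 0.819 and 0.190 to 0.586 TPM. Neither pair of ranges overlapped (exact permutation p = 0.0286 for each, the smallest the design allows, which 6.93% of the 11355 genes under the filter reached). Rarb averaged 0.0571 and 0.0473 TPM in obese and weight-cycled libraries and Rxrg 0.0304 and 0.0842 TPM, with overlapping ranges for both (exact permutation p = 0.743 and 0.686). Ghrl, the ghrelin gene of fetal islet epsilon cells, was at 0.0950 to 1.06 TPM in obese and 0 to 0.195 TPM in weight-cycled libraries, with overlapping ranges.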
